A study of Mus musculus with 12 samples.

Results

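The genes of collagen chains were followed in the ageing mouse cochlea. Members were all genes whose symbol in the platform annotation reads Col, a number, a and a number, and each gene was represented by its probe of highest mean level. This gave 41 genes, measured by 91 probes, among 19057 genes named on the array. Of the 41, 9 were placed among the fibrillar chains, 8 among basement membrane chains, 5 among the chains of types IX and XI, and 19 among other chains. RefSeq lists Col6a3, Col12a1 and Col20a1 as well, which were not analysed here.

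Cochleae without their vestibular organs came from C57BL6j mice, a strain in which hearing fails early, at 4, 15 and 45 weeks of age, and 5 at a time were combined into a pool. No treatment or engineered allele is named for any group. For each age there were 2 pools (a and b), and RNA of every pool was read on 2 arrays, which gave 12 arrays from 6 pools. The labels call the pools biological replicates. Pools therefore count as samples (n = 2 at each age), a number that limits the precision of every difference.

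A collagen molecule is a helix wound from alpha chains, each encoded by a gene of its own. Fibrillar collagens build the ropes of bone, cartilage, ligament and dermis, type IV chains build the sheets of basement membranes, and type IX and XI chains sit on or in the thin fibrils of cartilage and vitreous. In the cochlea types II, IX and XI occur in the tectorial membrane, type IV lies in the membranes under epithelia and around strial capillaries, and type I is the main fibre of the bony capsule. Human mutations in type II, IX and XI chains and in Col4a3, Col4a4 or Col4a5 orthologues are known causes of hearing loss.

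Levels are given in log2 units as the authors normalized them. Every array had a median of 5.89. Levels of different probes cannot be set against each other, so that only pools are compared. Of the 41 genes, 34 had a probe above 5.87, the median of the mean levels of all probes, and only these were tested. Col13a1, at a mean of 5.89, lay just inside and Col19a1, at 5.82, just outside. The 7 genes below the threshold were Col4a3, Col5a3, Col6a4, Col6a5, Col6a6, Col10a1 and Col19a1. Of the 10 cochlear fibrocyte markers, among them Otos and Coch, 10 lay above the threshold, with a mean level between 10.08 and 10.34 in the 6 pools. The pools b of 4 and 45 weeks carried the X-inactivation transcript Xist at 8.56 and 7.60, against 5.85 to 5.95 in the other 4 pools. They lay low for the Y-linked Eif2s3y, at 5.53 and 5.65 against 9.54 to 9.81. The labels name no sex. A gap between pools a and b at 4 or 45 weeks therefore cannot be told apart from a difference in sex makeup. Both 15-week pools lay low for Xist, at 5.90 and 5.95, and high for Eif2s3y, at 9.54 and 9.77. Differences of 15 weeks from 4 or 45 weeks therefore cannot be told apart from a difference in sex makeup either.

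In limma, 0 of 55 collagen probes reached an adjusted p under 0.05 in each of the 3 comparisons, and 0% of all 22640 probes tested did. The SD of the median level of a class between the pools of 1 age, combined over the 3 ages, was 0.735 for fibrillar chains. It was 0.200 for basement membrane chains, 0.0767 for types IX and XI and 0.0585 for other chains. These SDs use all genes of a class and do not rank the classes, since some median levels lay near the threshold. The median level was 6.06 to 6.36 for types IX and XI and 6.04 to 6.20 for other chains. Over the other chains above the threshold alone it ran from 6.94 to 7.57. The type IX gene Col9a2 was higher at 45 weeks than at 4 weeks by 0.81, more than its gaps between pools of 1 age and between arrays of 1 pool. Col1a1, Col6a1 and Col6a2 had wide gaps between arrays of the same RNA.

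**Figure D1:**
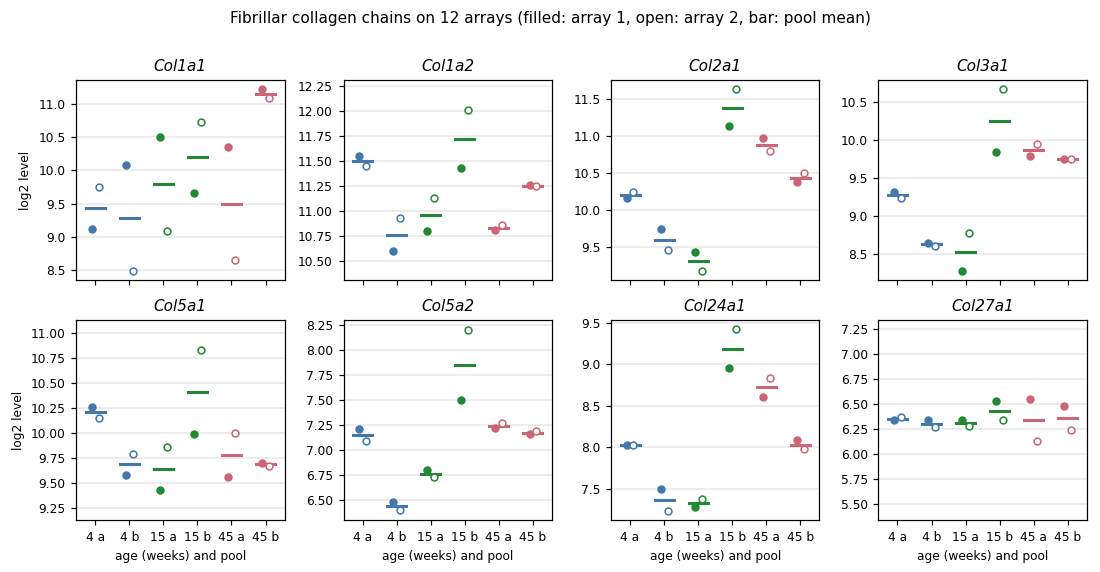
The log2 level (vertical axis) of the 8 fibrillar genes above the threshold on each array is plotted against age in weeks and pool; filled points are array 1, open points array 2 and bars the pool mean. Col2a1, Col3a1, Col5a2 and Col24a1 reach their highest level in pool b at 15 weeks, and the arrays of Col1a1 lie up to 1.71 apart within a pool.

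Among the fibrillar chains, Col2a1 encodes the chain of type II collagen, the main fibril of cartilage and of the tectorial membrane. It lay at 10.20 and 9.60 in pools a and b at 4 weeks, at 9.30 and 11.38 at 15 weeks, and at 10.88 and 10.43 at 45 weeks. Both 45-week pools were above both 4-week pools, while the 15-week pools held the lowest and the highest value. The 45-week mean exceeded the 4-week mean by 0.76 (SE 0.61; limma adjusted p = 0.614). The 3 probes of Col2a1 gave 0.76 to 0.96 for this difference.

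Col3a1, the chain of type III collagen of vessels and loose connective tissue, read 9.28 and 8.63 at 4 weeks, 8.53 and 10.26 at 15 weeks, and 9.87 and 9.75 at 45 weeks. It was higher at 45 than at 4 weeks by 0.86 (SE 0.51; limma adjusted p = 0.497). The 15-week pools again enclosed all others. Col24a1, a minor fibrillar chain known from developing bone, followed the same order, with 8.02 and 7.37, then 7.32 and 9.19, then 8.72 and 8.03. The 3 tested probes of Col24a1 gave differences of 0.0425 to 0.561 from 4 to 15 weeks and 0.132 to 0.681 from 4 to 45 weeks. From 15 to 45 weeks they gave -0.0370 to 0.120. Col5a2, a type V chain that is part of type I and III fibrils and the next protein-coding gene to Col3a1 in RefSeq, lay at 7.16 and 6.44, 6.77 and 7.85, and 7.25 and 7.17. For these genes the 2 pools of 15 weeks differed by 2.08 in Col2a1, 1.73 in Col3a1, 1.86 in Col24a1 and 1.09 in Col5a2.

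For Col2a1 and Col24a1 the gap between those pools was wider than the gaps between arrays of 1 pool. Both arrays of pool b read above both of pool a, at 11.14 and 11.63 against 9.43 and 9.17 for Col2a1 and at 8.95 and 9.42 against 7.28 and 7.37 for Col24a1. The same order held for Col3a1, at 9.84 and 10.67 against 8.28 and 8.78. Arrays of a pool share their RNA, and what set these pools apart was not tested.

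Type I collagen, the fibre of bone and most connective tissue, is made of 2 chains whose probes did not move alike. Col1a1 lay at 9.43 and 9.28 at 4 weeks, 9.79 and 10.19 at 15 weeks and 9.50 and 11.16 at 45 weeks. The 45-week mean was above the 4-week mean by 0.97 (SE 0.48; limma adjusted p = 0.420), yet 1.80 without pool a and 0.14 without pool b at 45 weeks. Its arrays disagreed by more than 1 in 4 pools, with readings of 10.08 and 8.48 (4 weeks, b), 10.50 and 9.09 (15 weeks, a), 9.66 and 10.72 (15 weeks, b), and 10.35 and 8.64 (45 weeks, a). Col1a2 lay at 11.50 and 10.76, then 10.96 and 11.72, then 10.83 and 11.25. Its 45-week mean was below the 4-week mean by 0.09 (difference -0.09, SE 0.33; limma adjusted p = 0.934), with a largest gap of 0.59 between arrays, and the difference ran from -0.46 to 0.28 with 1 pool left out.

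Col5a1, the other type V chain measured well above the median, lay at 10.21 and 9.69, 9.64 and 10.41, and 9.78 and 9.69. Its 45-minus-15-week difference was -0.29 (SE 0.27; limma adjusted p = 0.783). Dropping 15 weeks b turned it to 0.09. Col27a1, a cartilage fibrillar chain, stayed between 6.30 and 6.43 in all pools, near the threshold.

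Taking the 8 fibrillar genes above the threshold, 8 had a higher mean at 15 than at 4 weeks, beside 28 of all 34 collagen genes and 49.3% of all probes tested. Over all 9 fibrillar genes the median difference was 0.44, against -0.00203 over all probes tested. Without pool b at 15 weeks 1 of the 8 was higher and their median was -0.24, and without pool a 8 were higher with a median of 0.95. The direction from 4 to 15 weeks therefore rests on 1 pool. From 15 to 45 weeks 4 of the 8 were higher, beside 49.4% of all probes. This count became 1 without pool a and 8 without pool b at 15 weeks.

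Between 4 and 45 weeks 6 of the 8 fibrillar genes were higher at 45 weeks, beside 49.3% of all probes, and the median over the 9 was 0.41 against -0.0036 over all probes tested. Leaving out 1 pool gave between 5 and 8 genes higher and a median over the 9 between 0.0553 and 0.770, the extremes being reached by dropping pool b or pool a of the 4-week mice. Both 45-week pools lay above both 4-week pools for Col1a1, Col2a1, Col3a1, Col5a2 and Col24a1. The lower 45-week pool and the upper 4-week pool read 9.50 and 9.43 in Col1a1, and 8.03 and 8.02 in Col24a1. Col5a2 had a narrow margin too. In these genes the arrays of 1 pool lay further apart than that margin. Over all 34 collagen genes, pools without overlap were found upward in 11 genes, beside 22.5% of all probes tested. Downward they were found in 2, Col18a1 and Col28a1, beside 22.5%. The 11 also hold Col4a5, Col4a6, Col9a1, Col9a2, Col15a1 and Col22a1. From 4 to 15 weeks the counts were 9 upward (12.8% of all probes) and 3 downward (13.6%), and from 15 to 45 weeks 2 upward (19.8%) and 2 downward (19.9%). Col4a6, among the 11 and the 9, passed the level threshold only through its older pools. Col17a1, among the 3 downward and the later 2 upward, passed it only through 4 and 45 weeks. For these genes the filter itself favours the difference counted.

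**Figure D2:**
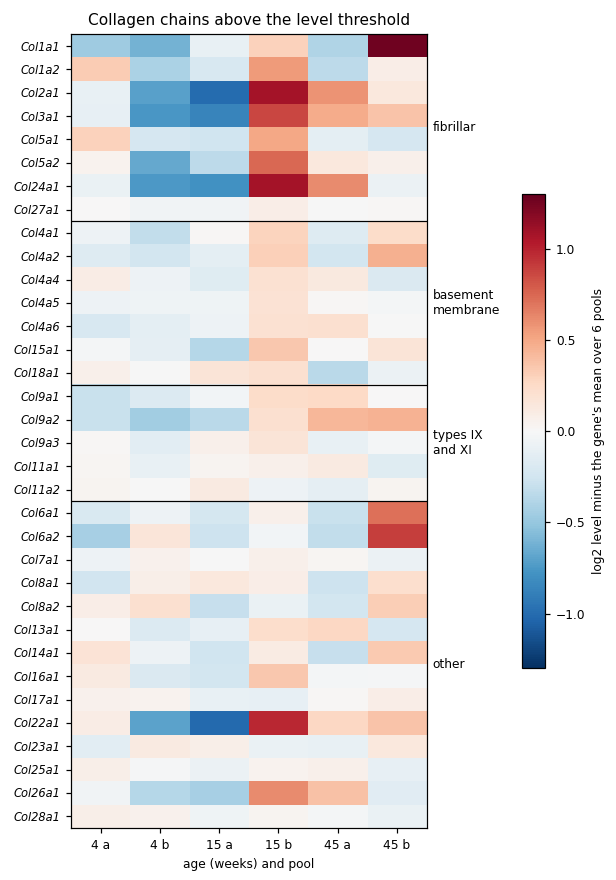
Rows are the 34 collagen genes above the level threshold, grouped by class, columns are the 6 pools, and colour is the log2 level minus the gene's mean over the pools. Col2a1, Col3a1, Col24a1 and Col22a1 share a low pool a and a high pool b at 15 weeks, and Col1a1, Col6a1 and Col6a2 are highest in pool b at 45 weeks.

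Pool b at 15 weeks held the highest level of 7 of the 8 fibrillar genes and of 17 of the 34 collagen genes, whereas 12.6% of all probes tested were highest there. The mean of bone cell markers was highest in that pool too, although Sost, Ifitm5, Fam20c and Omd were highest in a 45-week pool. The list of 11 osteoblast and osteocyte genes found of 12 (among them Bglap, Ibsp and Dmp1) had a mean level of 8.99 and 8.61 at 4 weeks, 8.56 and 9.59 at 15 weeks, and 9.38 and 9.37 at 45 weeks. The 8 fibrillar genes averaged 9.02 and 8.51, 8.58 and 9.68, and 9.15 and 9.23 in the same pools. Both had their highest value in pool b at 15 weeks and their lowest in 1 of 2 pools, 4 weeks b or 15 weeks a. Skeletal muscle markers, 11 found of 12, averaged 9.21 and 10.05, 8.22 and 9.64, and 9.02 and 10.24, and were lowest in pool a at 15 weeks. Of the 10 muscle genes tested 0 were higher at 15 than at 4 weeks (median -0.66) and 10 were higher at 45 than at 15 weeks (median 0.87). The part of bone and muscle markers in the fibrillar levels was not tested. In RNA of a whole tissue, more cells of a type and more RNA per cell cannot be told apart.

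**Figure D3:**
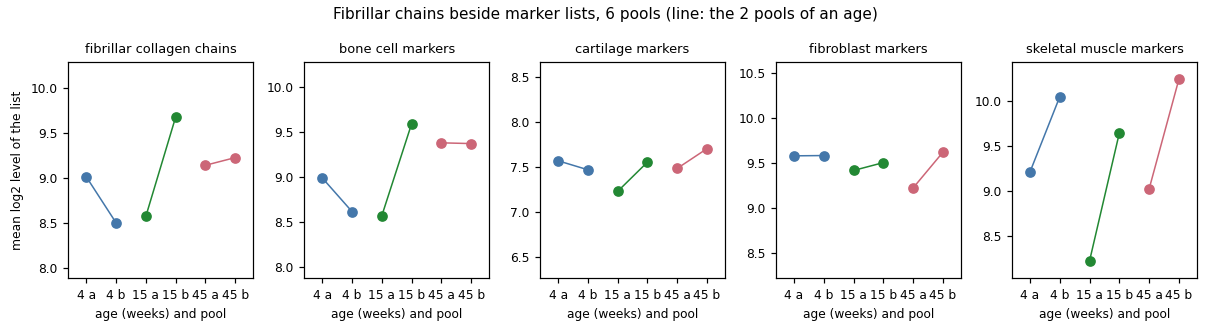
The mean log2 level (vertical axes, all of the same length) of the 8 fibrillar genes and of the bone cell, cartilage, fibroblast and muscle marker lists is plotted for the 6 pools, with a line joining the pools of an age. Fibrillar genes and bone cell markers have their widest gap at 15 weeks, at 8.58 to 9.68 and 8.56 to 9.59. So do muscle markers, at 8.22 to 9.64, and cartilage markers, at 7.23 to 7.56, whereas fibroblast markers span 9.23 to 9.62 over all pools.

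Other marker lists differed less between those pools. Cartilage markers (9 found of 10, 7 tested) averaged 7.57 and 7.47, 7.23 and 7.56, and 7.49 and 7.71. The tested cartilage genes did not move alike at 15 weeks. Acan, Chad, Hapln1, Snorc and Ucma were higher in pool b than in pool a, and Comp and Matn1 were lower. Snorc lay at 6.37 and 8.04 in pools a and b, and Comp at 10.15 and 9.15. Fibroblast markers (10 of 10) averaged 9.58 and 9.58 at 4 weeks, 9.42 and 9.51 at 15 weeks, and 9.23 and 9.62 at 45 weeks. Endothelial markers ran from 8.11 to 8.45, Schwann cell markers from 9.93 to 10.41, and epithelium and skin markers from 6.93 to 7.27 over the 6 pools. The 45-minus-4-week median was 0.50 for the bone cell list, where 11 of 11 genes were higher at 45 weeks, and 0.45 for the Schwann cell list. It was 0.11 for muscle, 0.09 for cartilage, -0.02 for cochlear fibrocytes, 0.000384 for endothelium, and -0.19 for fibroblasts as well as for epithelium and skin, where 0 of 7 tested genes were higher.

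Basement membrane chains showed smaller differences. Col4a1 and Col4a2 encode the chains of the common type IV network found in nearly every basement membrane. The genes are neighbours that point away from each other, and their promoter windows are printed because they overlap. In RefSeq's GRCm38.p6 the window of 250 bases before to 50 after the start lies at chr8:11312777-11313076 on the minus strand for Col4a1 and at chr8:11312555-11312854 on the plus strand for Col4a2. Capitals mark the 78 bases that both windows hold, each read 5′ to 3′ on its own strand.
Col4a1: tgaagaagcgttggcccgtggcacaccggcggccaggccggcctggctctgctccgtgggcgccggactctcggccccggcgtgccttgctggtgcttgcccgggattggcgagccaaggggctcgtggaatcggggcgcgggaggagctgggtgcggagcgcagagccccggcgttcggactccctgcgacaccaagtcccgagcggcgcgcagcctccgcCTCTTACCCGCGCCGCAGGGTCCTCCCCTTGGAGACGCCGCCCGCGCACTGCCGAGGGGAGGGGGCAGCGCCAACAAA
Col4a2: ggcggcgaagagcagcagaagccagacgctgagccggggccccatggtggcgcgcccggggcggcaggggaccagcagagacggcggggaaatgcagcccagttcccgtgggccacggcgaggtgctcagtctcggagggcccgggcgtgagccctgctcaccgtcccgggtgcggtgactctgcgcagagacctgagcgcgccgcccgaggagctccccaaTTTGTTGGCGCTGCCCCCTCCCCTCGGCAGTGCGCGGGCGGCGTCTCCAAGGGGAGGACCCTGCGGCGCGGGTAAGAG

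Levels of Col4a1 were 9.11 and 8.86 at 4 weeks, 9.19 and 9.46 at 15 weeks, and 9.01 and 9.42 at 45 weeks. Those of Col4a2 were 8.01 and 7.94, 8.05 and 8.48, and 7.94 and 8.64. In both genes pools b at 15 and 45 weeks were the 2 highest, and the 15-week pools lay above the 4-week pools. From 4 to 15 weeks Col4a1 differed by 0.34 (SE 0.19) and Col4a2 by 0.29 (SE 0.25), with a limma adjusted p of 1.00 for both. For Col4a2 the arrays of pool b at 15 weeks lay 0.73 apart, at 8.12 and 8.85.

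Col4a3, Col4a4 and Col4a5 encode the chains of a specialised type IV network known from kidney, eye and cochlea. Col4a3 was below the threshold, at 5.57 to 5.83. Col4a4 lay at 6.43 and 6.27, 6.18 and 6.53, and 6.46 and 6.14, with overlapping pools at all ages. Col4a5 ran from 7.23 to 7.48 and was highest in pool b at 15 weeks. Its neighbour Col4a6 read 5.75 and 5.83 at 4 weeks, 5.90 and 6.16 at 15 weeks, and 6.17 and 5.96 at 45 weeks, so that the 4-week pools were the 2 lowest. Both of its 4-week pools lay under 5.87, and the gene passed the threshold through its older pools, which favours an upward difference. The 45-minus-4-week difference of Col4a6 was 0.27 (SE 0.14; limma adjusted p = 0.448), and its arrays never lay more than 0.13 apart. Its other 3 probes were below the threshold.

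Col18a1 encodes the chain whose cleavage gives endostatin. It lay at 8.96 and 8.89 at 4 weeks, 9.07 and 9.10 at 15 weeks, and 8.54 and 8.82 at 45 weeks. The 45-week pools were below all younger ones, by 0.40 from 15 weeks (difference -0.40, SE 0.13; limma adjusted p = 0.606). Its arrays within a pool lay up to 0.54 apart, and the 15-week readings of 8.80 and 8.83 overlap the 45-week range of 8.29 to 8.87. Col15a1, the related multiplexin chain, read 6.86 and 6.77, 6.51 and 7.23, and 6.89 and 7.05.

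As a class, 7 of the 7 basement membrane genes above the threshold had higher means at 15 than at 4 weeks, and 5 of 7 without pool b at 15 weeks. From 15 to 45 weeks 3 of 7 were higher, with 0 without pool a and 6 without pool b at 15 weeks. Between 4 and 45 weeks 5 of 7 were higher. Over all 8 genes the class medians were 0.14, -0.06 and 0.10 in these comparisons. Leaving out 1 pool gave 0.0399 to 0.310 for the first, the ends being reached by dropping 15 weeks b or 15 weeks a. For the second it gave -0.213 without pool a and 0.0860 without pool b at 15 weeks, so that the sign turned, and for the third 0.0466 (without pool b at 45 weeks) to 0.123.

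**Figure D4:**
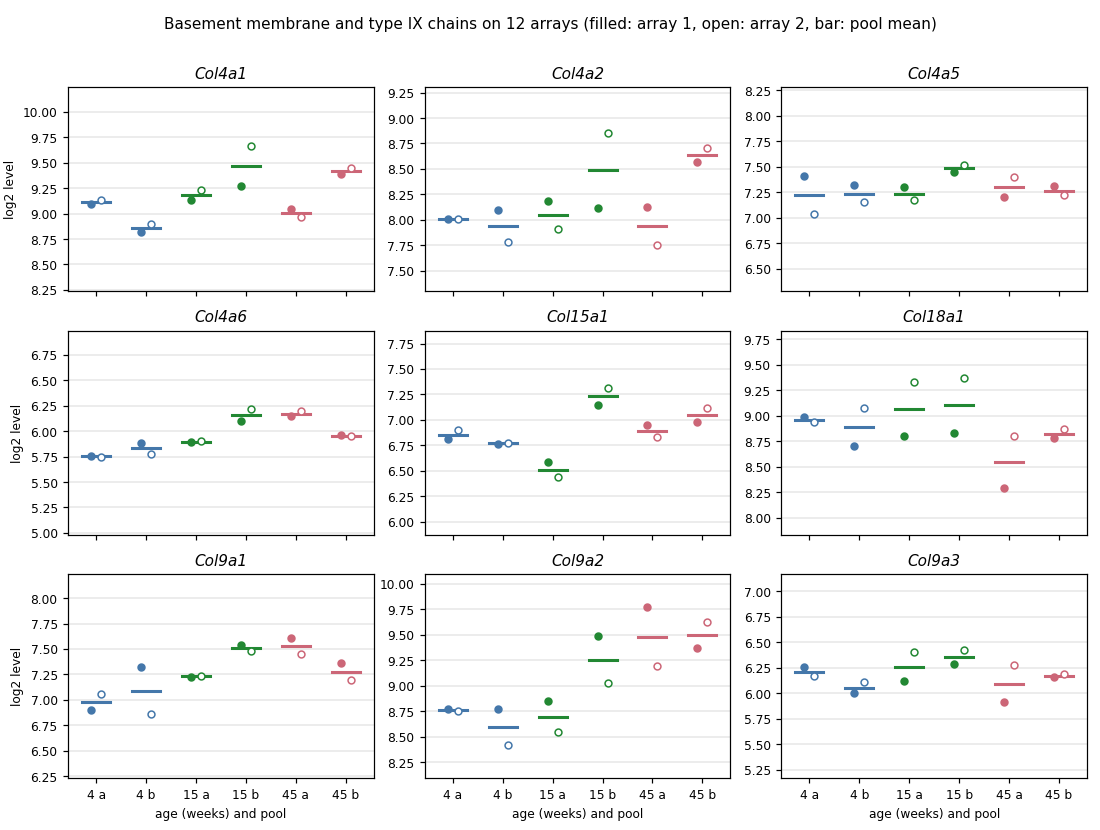
The log2 level (vertical axis) of 6 basement membrane and 3 type IX genes on each array is plotted against age in weeks and pool; filled points are array 1, open points array 2 and bars the pool mean. The Col9a2 pools at 45 weeks, at 9.48 and 9.50, lie above the 4 younger pools, at 8.60 to 9.26.

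Type IX collagen is built from the products of Col9a1, Col9a2 and Col9a3 and coats type II fibrils. Col9a2 lay at 8.76 and 8.60 at 4 weeks, 8.70 and 9.26 at 15 weeks, and 9.48 and 9.50 at 45 weeks. Both 45-week pools exceeded all 4 younger pools, and every array at 45 weeks (9.19 to 9.77) exceeded every array at 4 weeks (8.42 to 8.77). The difference from 4 to 45 weeks was 0.81 (SE 0.19; limma adjusted p = 0.271). It stayed positive, between 0.73 and 0.89, in the alternatives that could change it. These were single arrays, a pool of 4 or 45 weeks left out, and the Xist covariate. The rest of the 16 alternatives leave the difference unchanged and could not turn its sign. The lowest limma adjusted p was 0.0779, in the fit to 12 arrays. From 15 to 45 weeks the difference was 0.51 (SE 0.19; limma adjusted p = 0.606). At an unadjusted p under 0.05, 2 of the 34 collagen genes, Col9a1 and Col9a2, were higher at 45 than at 4 weeks, beside 6.65% of all probes tested, and 0 were lower, beside 7.21%. From 15 to 45 weeks Col9a2 alone was higher (4.01% of all probes) and Col18a1 alone lower (4.14%). From 4 to 15 weeks 0 were higher and 0 lower (0.667% each).

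The promoter window of Col9a2 is shown because this gene had the smallest p among the collagens. It lies at chr4:121039316-121039615 on the plus strand of GRCm38.p6, and capitals mark GGGCGG, the core of the GC box, on either strand.
Col9a2: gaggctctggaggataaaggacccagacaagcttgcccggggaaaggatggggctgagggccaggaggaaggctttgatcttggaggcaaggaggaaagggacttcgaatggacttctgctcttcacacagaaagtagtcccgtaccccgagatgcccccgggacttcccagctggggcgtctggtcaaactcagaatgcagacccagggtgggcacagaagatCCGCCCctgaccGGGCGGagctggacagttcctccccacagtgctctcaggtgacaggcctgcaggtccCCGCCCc
Windows were found for 33 of the 41 genes, 36 windows in all. GGGCGG, searched on both strands, was in 63.9% of these windows and in 35.7% of the 32851 windows of all genes. CCAAT was in 36.1% against 37.4%, and TATAAA in 13.9% against 13.6%.

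Col9a1 lay at 6.98 and 7.09, 7.23 and 7.51, and 7.53 and 7.28, with the 4-week pools below the others. Its 45-minus-4-week difference was 0.37 (SE 0.15; limma adjusted p = 0.353). The other tested probe of Col9a1 gave 0.0646 for this difference and 0.0566 from 4 to 15 weeks. Col9a3 lay at 6.21 and 6.06, 6.26 and 6.36, and 6.10 and 6.17, and its 4-to-45-week difference was -0.000722. Differences between the 3 chains of type IX were not tested. Of the type XI chains, which set fibril diameter in cartilage and the tectorial membrane, Col11a1 ran from 5.86 to 6.13 and Col11a2 from 5.84 to 6.08, both close to the threshold. Over the 5 genes of types IX and XI the medians were 0.17 from 4 to 15 weeks, -0.07 from 15 to 45 weeks and 0.01 from 4 to 45 weeks.

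The remaining chains form networks, filaments, membrane-bound molecules and links between fibrils. Col6a1 and Col6a2 are neighbouring genes whose products form beaded filaments around cells and muscle fibres. Col6a2 lay at 6.84 and 7.42, 6.999 and 7.23, and 6.94 and 8.16, and Col6a1 at 8.87 and 8.999, 8.84 and 9.14, and 8.78 and 9.79. Both were highest in pool b at 45 weeks, as Col1a1 was. At 4 weeks the array readings in pool b were 7.93 and 6.91 for Col6a2, and 9.42 and 8.57 for Col6a1. The 45-minus-15-week difference of Col6a2 was 0.44 (SE 0.39; limma adjusted p = 0.773). It was 1.05 without pool a and -0.17 without pool b at 45 weeks. A second probe of Col6a2 gave 0.00641.

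Col22a1, a chain of tissue junctions such as that of muscle and tendon, was chosen after its values were seen. It lay at 9.80 and 9.004, 8.69 and 10.68, and 9.97 and 10.07, with arrays no more than 0.36 apart. Its pools at 15 weeks differed by 1.99, as those of Col2a1 and Col24a1 did. Col26a1, chosen in the same way, lay at 6.21 and 7.26 at 15 weeks.

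Col8a2, a short chain of the corneal endothelial membrane and of vessels, lay at 9.23 and 9.36, 8.85 and 9.05, and 8.91 and 9.46. It had the largest difference downward from 4 to 15 weeks, -0.34 (SE 0.20; limma adjusted p = 1.00), and both of its tested probes gave a negative value. Its partner Col8a1 differed by 0.20 in that comparison, with 9.86 and 10.19 at 4 weeks and 10.25 and 10.20 at 15 weeks. Col17a1, the transmembrane chain of hemidesmosomes, lay at 5.99 and 5.98, 5.83 and 5.82, and 5.95 and 6.02, with both 15-week pools under the threshold that it passed through the other ages. Col14a1, a chain on the surface of type I fibrils, lay at 7.30 and 7.06, 6.87 and 7.23, and 6.83 and 7.46. Col28a1 lay between 6.04 and 6.20. Over all 19 genes of this class the medians were 0.05, 0.02 and 0.01 in the 3 comparisons in the order used above, and 12, 10 and 12 were higher at the older age.

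**Figure D5:**
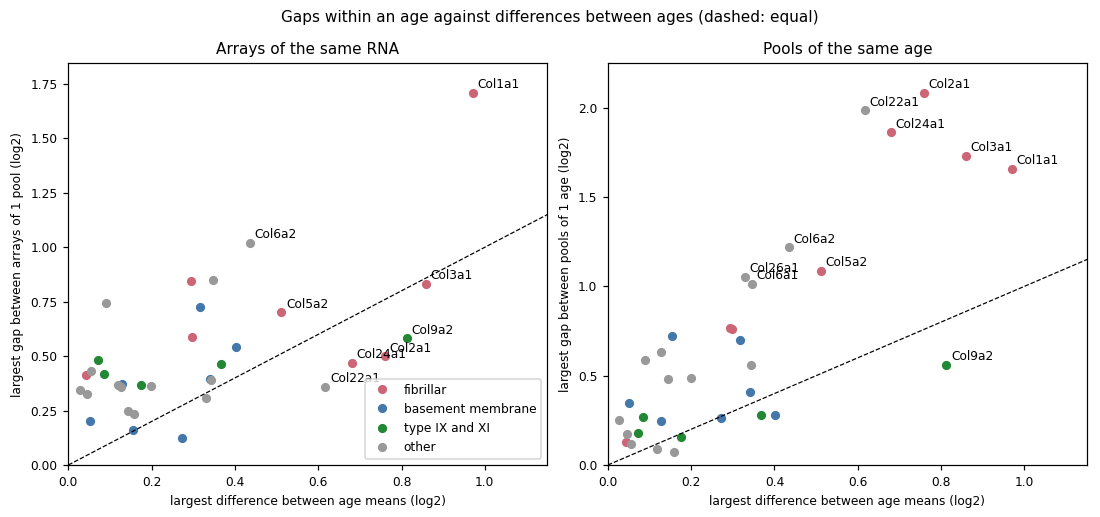
For the 34 collagen genes above the threshold, the largest gap between the 2 arrays of a pool (left) and between the 2 pools of an age (right) is plotted against the largest difference between age means, all in log2 units, with equality as a dashed line. Col4a6 and Col9a2 are the genes below both lines.

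The gap between arrays of the same RNA exceeded the largest difference between ages in 27 of the 34 genes (79.4%), beside 79.1% of all probes tested. The gap between pools of 1 age did so in 27 of 34 too, beside 68.7% of all probes. Col4a6 and Col9a2 were the genes in which neither did, and Col4a6 had passed the level threshold only through its older pools. A gap between arrays above 1 was found in 2 genes, Col1a1 and Col6a2, beside 1.74% of all probes, and above 0.5 in 11, beside 21.4%. For the 34 collagen genes the gaps were widest in 15 weeks b, where their median was 0.36, against 0.17 over all probes tested. Over all probes the widest median gap was 0.19, in pool a at 15 weeks. In 15 weeks b, 6 of the 34 genes read higher on array 1, whereas 49.4% of all probes did. Medians over the collagen genes in the other 5 pools were 0.08 to 0.17. In Col1a1, Col4a2, Col6a1 and Col6a2, chosen after their values were seen, array 1 read higher than array 2 in 3 pools (4 weeks b, 15 weeks a, 45 weeks a) and lower in 1 (15 weeks b). Col1a2 and Col5a1 read lower on array 1 in each of these pools.

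Genes that make, process and sense collagen were read from 6 lists, and 0 of the 48 tested genes passed over all probes in any comparison. For the hydroxylation and glycosylation list, 10 of 14 genes were higher at 15 than at 4 weeks, 7 of 14 at 45 than at 15 weeks and 10 of 14 at 45 than at 4 weeks (medians 0.11, 0.00102 and 0.15). Plod3, which encodes a lysyl hydroxylase that also adds sugars, lay at 10.78 and 10.69, 10.66 and 10.70, and 10.39 and 10.43, a 45-minus-4-week difference of -0.32 (SE 0.11; limma adjusted p = 0.302). P3h4 differed by 0.37 and Crtap, a partner of prolyl 3-hydroxylase, by 0.50 in that comparison.

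In the folding and export list 8, 6 and 7 of 9 genes were higher at the older age (medians 0.08, 0.10 and 0.19). The 3 genes with the smallest p were Fkbp7, Fkbp14 and Creb3l1, with 45-minus-4-week differences of 0.51, 0.28 and 0.19. Fkbp7 lay at 8.66 and 8.86, 8.75 and 9.15, and 9.06 and 9.48. For propeptide cleavage 4, 3 and 3 of 4 genes were higher (medians 0.01, 0.06 and 0.07). Pcolce, an enhancer of the C-propeptide protease, was highest in pool b at 45 weeks, at 9.62 against 8.59 in pool a, as Col1a1 and the type VI genes were. Pcolce2 lay between 8.82 and 9.22 and Mep1b between 5.73 and 6.01.

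In the crosslinking list 2, 0 and 1 of 3 genes were higher (medians 0.02, -0.04 and -0.02). Lox, the lysyl oxidase, lay at 8.60 and 8.44, 8.65 and 9.37, and 8.60 and 8.85, again highest in pool b at 15 weeks, while Loxl1 and Loxl4 had differences of at most 0.02 upward and -0.04 downward. Of the collagen receptors 3, 5 and 3 of 9 genes were higher (medians -0.04, 0.000948 and -0.07). The integrin chain gene Itga2 lay at 6.36 and 5.98, 6.17 and 6.15, and 5.74 and 5.65, below all younger pools at 45 weeks (45 minus 4 weeks -0.47, SE 0.15; limma adjusted p = 0.290). Its 45-week pools lay under the threshold of 5.87, which it passed through the younger pools, and this favours a downward difference. The receptor kinase genes Ddr2 and Ddr1 differed by -0.34 and 0.27 from 15 to 45 weeks.

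Of the transcriptional regulators 4, 3 and 4 of 9 genes were higher (medians -0.01, -0.21 and -0.07). Sox9, which drives Col2a1, type IX and type XI genes in cartilage, lay at 11.53 and 11.47, 11.51 and 11.27, and 11.09 and 10.96. Both 45-week pools were below all younger ones (45 minus 4 weeks -0.48, SE 0.13; limma adjusted p = 0.275). Its partner Sox5 differed by -0.49, and Twist1, a mesenchymal factor, by 0.54 (SE 0.13; adjusted p = 0.271), in that comparison.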

How the data were processed

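Cochlear RNA of C57BL6j mice was labelled with biotin and hybridised to 12 Illumina arrays. The deposited log2 values of 45281 probes had been quantile-normalized by the authors, since sorting the columns gives 1 common set of values. For background correction and software the sources used here give nothing. Such a normalization hides a shift of most transcripts. The 12 signal and 12 detection columns of another deposited table could not be tied to samples by name and were left unused, so that no detection call is made.

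Probes were named from the platform annotation and updated through their gene numbers to RefSeq (GRCm38.p6) (34807 of 34885 with 1 symbol, 18 with several and 10378 with none). No coordinates are given for probes. Arrays of a pool were averaged, and a linear model with moderated variances (limma 3.58.1, R 4.3.3) was fitted over 6 pools and the 22640 probes with a mean above 5.87. Benjamini-Hochberg adjustment ran over these probes, with calls at an adjusted p under 0.05. Standard errors (SE) use the moderated variance. Class medians have no test.

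Genes named are the fibrillar, type IV, IX and XI members, the 3 largest differences in each direction, and up to 3 genes of each synthesis, receptor and regulator list. Members and lists were chosen with earlier results of these data known. The planned protein features were not run, since no protein sequences were used here. Alternatives were other level filters, single arrays, a random pool block, the letters as a block, each pool left out, 2 ages alone, a trended fit, 1 probe per gene and, added later, an Xist covariate.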

Additional observations from a re-analysis of the deposited data

How the results depend on the processing

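The count of collagen probes called was 0 in each comparison under every alternative run: no filter, the 75th percentile filter, 12 arrays with a random block for pool, array 1 or array 2 alone, 2 ages alone, a trended robust fit, 1 probe per gene, each pool left out and the Xist covariate, the last chosen after the data were seen. With the replicate block (letters a and b) it was 0 as well, and the letters do not pair the pools, whose deviations correlated by -0.11, 0.18 and -0.39 across probes. The smallest adjusted p of a collagen probe was 0.0779, from 4 to 45 weeks with 12 arrays, a fit that called 183 of 22640 probes in that comparison, 6 from 15 to 45 weeks and 2 from 4 to 15 weeks. Every other fit called at most 12 probes. Of 34 tested genes 12 kept 1 sign under all alternatives from 4 to 15 weeks, 6 from 15 to 45 weeks and 14 from 4 to 45 weeks. A sign could turn only on single arrays, without a pool of an age compared or with the Xist covariate. The other alternatives leave a difference unchanged. The share of all probes that kept 1 sign was not computed.

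Of 135 recomputed class medians 123 moved by less than the spread of pools. These 123 hold all medians recomputed with the letter block, which is balanced over ages and cannot change them. They also hold the medians of types IX and XI above the level filter, which all 5 genes passed. The spread of pools is the SD of the median level given above. That spread does not rank the classes. It is wide for fibrillar chains, and signs turned within it. With the mean over all probes of a gene the fibrillar median was 0.210 from 4 to 15 weeks (main 0.438) and 0.157 from 4 to 45 weeks (main 0.412). From 4 to 15 weeks it was 0.0965 on array 1 alone and 0.556 on array 2 alone. From 4 to 45 weeks it was 0.344 and 0.481 on these arrays. Without 1 pool the fibrillar median ran from -0.169 to 0.837 from 4 to 15 weeks, from -0.643 to 0.445 from 15 to 45 weeks and from 0.0553 to 0.770 from 4 to 45 weeks. The basement membrane median ran from 0.0399 to 0.310, from -0.213 to 0.0860 and from 0.0466 to 0.123, and that of all chains from -0.0242 to 0.179, from -0.112 to 0.123 and from 0.0206 to 0.0770. The type IX and XI median from 4 to 15 weeks (0.17) was 0.0647 with the mean over probes and 0.0753 on array 1 alone, and ran from 0.0966 to 0.252 without 1 pool; from 15 to 45 weeks it ran from -0.0932 to 0.0598, and from 4 to 45 weeks (0.01) it was 0.0925 on array 2 alone and ran from -0.0488 to 0.145. The median of other chains from 4 to 15 weeks (0.05) was -0.0227 on array 1 alone and ran from -0.102 to 0.0988 without 1 pool; from 15 to 45 weeks (0.02) it was 0.10 on array 1 alone and ran from -0.0895 to 0.136.

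Counts of genes higher at the older age, recomputed without each pool after the data were seen, ran from 4 to 15 weeks between 14 and 29 of 34 for all chains, 1 and 8 for fibrillar and 3 and 10 for other chains. From 15 to 45 weeks they ran between 8 and 26 for all chains, 1 and 8 for fibrillar, 0 and 6 for basement membrane and 5 and 10 for other chains. The cause was not tested. The number of pools and the gaps between arrays limit what can be seen.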
